A study of Drosophila melanogaster with 2 samples.

Results

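Distal intergenic binding of Dmrt99B-eGFP was described here through 570 of the 7838 peaks on which 2 biological replicates of a chromatin immunoprecipitation sequencing (ChIP-seq) experiment met an irreproducible discovery rate (IDR) threshold. A peak was taken as distal when its summit, the base of highest signal, lay outside every annotated gene body and more than 5 kb from the nearest transcription start site (TSS) of a protein-coding or ncRNA gene. No signal value entered that choice. The libraries came from whole Drosophila melanogaster embryos of both sexes, aged 6 to 16 h, of 1 transgenic line that carries dmrt99B with eGFP fused to its C terminus. Chromatin was sheared by sonication, and the descriptions name an anti-GFP antibody while the antibody field names dmrt99B itself. There was 1 group, with replicates 3 and 4, and no other genotype, stage or control library was analysed here. Whole embryos mix all cell types, so a low signal in many cells and a high signal in few cells cannot be told apart. The fusion protein is the only form assayed, and all embryos came from 1 line. The other peaks fell into 3 classes, which are 1038 near intergenic summits (0.5 to 5 kb from a TSS), 3948 gene body summits and 2282 promoter summits (within 500 bp of a TSS).

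Dmrt99B belongs to the DM-domain family, zinc-binding transcription factors named after Doublesex and Mab-3 and known for roles in sexual differentiation and in nervous system development. Intergenic DNA far from any promoter holds many enhancers of developmental genes in flies, which act on a promoter over a distance and often stand in groups around 1 gene. ChIP-seq finds DNA that was crosslinked to the tagged protein directly or through other proteins, so a summit marks a place of recovery, not a tested enhancer, and a flanking gene is a neighbour, not a known target.

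A sequence feature found at a minority of distal summits was the 7-mer CAGTGTA, searched on both strands, which lay beside the summit and read outward from it. The following 29-base stretches are shown because they carry this arrangement. The first 4 are from peaks with 1 copy to each side of the summit, and the next 5 from distal peaks with a copy on 1 side. Capitals mark CAGTGTA. Each is written 5′ to 3′ on the strand that reads CAGTGTA, from the RefSeq release 6 (dm6) genome.
klg gap, chr3R:22862123-22862151, minus strand, centred 67 bp left of the summit: atgccgttttctcgCAGTGTAgaccattc
klg gap, chr3R:22862261-22862289, plus strand, centred 77 bp right of the summit: cacttaatttctctCAGTGTAcgatgtat
Or85b gap, chr3R:8482992-8483020, minus strand, centred 75 bp left of the summit: taggtctttattccCAGTGTAagcagcat
Or85b gap, chr3R:8483143-8483171, plus strand, centred 82 bp right of the summit: cacattttgttttaCAGTGTAccctccca
Doc2 gap, chr3L:9025965-9025993, plus strand, centred 92 bp right of the summit: acattttcgctCAGTGTAccaatctgttg
CG43401 gap, chr2L:1433969-1433997, plus strand, centred 93 bp right of the summit: cgattttctctCAGTGTAtgttgggaggg
vvl gap, chr3L:6853706-6853734, plus strand, centred 90 bp right of the summit: agtttttcttcCAGTGTAtagcctattga
NijA gap, chr3L:10756167-10756195, minus strand, centred 67 bp left of the summit: aatttttcgtgCAGTGTAgggaaatacac
ems gap, chr3R:13892960-13892988, minus strand, centred 67 bp left of the summit: gttatttctcgCAGTGTAcattagagagc

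The following 3 windows reach 100 bp to either side of a distal summit, all on the plus strand, and only the first holds such sites. Their GC content is 31.8%, 24.4% and 18.4% in the order printed, against a mean of 33.2% over distal windows. The window in the gap between Doc2 and lncRNA:CR46451 (chr3L:9025787-9025987) holds CACTGAG on the left and the joined CTCAGTGTA on the right, both in capitals. The windows beside chinmo (chr2L:1638693-1638893) and in the NijA gap (chr3L:10752665-10752865) surround the distal peaks that ranked 2 and 3 by signal and hold neither 7-mer.
Doc2 window: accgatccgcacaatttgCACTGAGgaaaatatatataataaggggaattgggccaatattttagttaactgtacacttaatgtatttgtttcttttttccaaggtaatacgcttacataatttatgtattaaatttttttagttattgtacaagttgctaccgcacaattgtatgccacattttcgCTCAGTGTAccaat
chinmo window: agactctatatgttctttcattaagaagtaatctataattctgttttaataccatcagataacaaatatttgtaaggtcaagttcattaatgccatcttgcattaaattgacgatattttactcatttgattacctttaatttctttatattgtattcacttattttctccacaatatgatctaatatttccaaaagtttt
NijA window: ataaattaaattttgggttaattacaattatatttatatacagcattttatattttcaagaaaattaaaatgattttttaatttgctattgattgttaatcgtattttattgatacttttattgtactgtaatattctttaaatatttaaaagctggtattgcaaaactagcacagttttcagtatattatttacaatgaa

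Of the 570 windows that reach 100 bp to either side of distal summits, 66 held CAGTGTA (11.6%, 95% Wilson interval 9.21 to 14.5%). Windows of the same width 1000 bp to the left and right of the same summits held it in 6 and 7 cases (1.05% and 1.23%). Among 100804 consecutive windows of that width tiled over all distal intergenic sequence, 1.86% held it. Both background shares lay below the Wilson interval of the summits. CAGTGTA was picked with earlier results of these data known, so this excess is a description and the interval is no test of it. The share was 8.17% over the 7268 other IDR summits, with 10.1% at near intergenic summits, 9.27% in gene bodies and 5.39% at promoters. Intervals here cover counting error over peaks only, and no test was made between location classes, since peaks of 1 experiment are not replicates. CACTGAG was found in 67 distal windows (11.8%, Wilson interval 9.36 to 14.7%), against 8 and 10 flank windows and 6.32% of the other summits. By class it was in 9.44% of near intergenic windows, inside that interval, and in 7.29% of gene body and 3.20% of promoter windows. Its reverse complement, CTCAGTG, overlaps CAGTGTA by 5 letters, and the joined CTCAGTGTA stood in 13 distal windows (2.28%), against 1.75% of the other summits and 0.155% of the tiled windows. One or the other 7-mer was present at 117 distal summits (20.5%), against 12.4% of the other summits and 3.36% of the tiled windows. The other 453 distal windows held neither. A match is a description of the letters, not evidence of a bound site.

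The strand of CAGTGTA went with the side of the summit on which it lay. Within 150 bp of distal summits, leaving out the central 25 bp to each side, 107 of 112 copies (95.5%) read outward, that is, with CAGTGTA pointing away from the summit. In the flanks 1000 bp away, 6 of 16 copies on the left and 8 of 12 on the right pointed away from the flank's own centre. The shares at the other classes were 94.8% outward at near intergenic summits, 89.9% in gene bodies and 84.1% at promoters. Around the distal summits of each replicate's own 7838 strongest peaks, 94 of 100 copies in replicate 3 and 91 of 96 in replicate 4 read outward. The summit positions of the 3 lists are not independent, since all derive from the same 2 libraries. CTCAGTG gave 88 of 97 copies outward (90.7%), against 89.9% at near intergenic summits, 91.0% in gene bodies and 74.6% at promoters. Copies were densest 75 to 100 bp from the summit, and 5 copies lay within 25 bp of it.

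**Figure D1:**
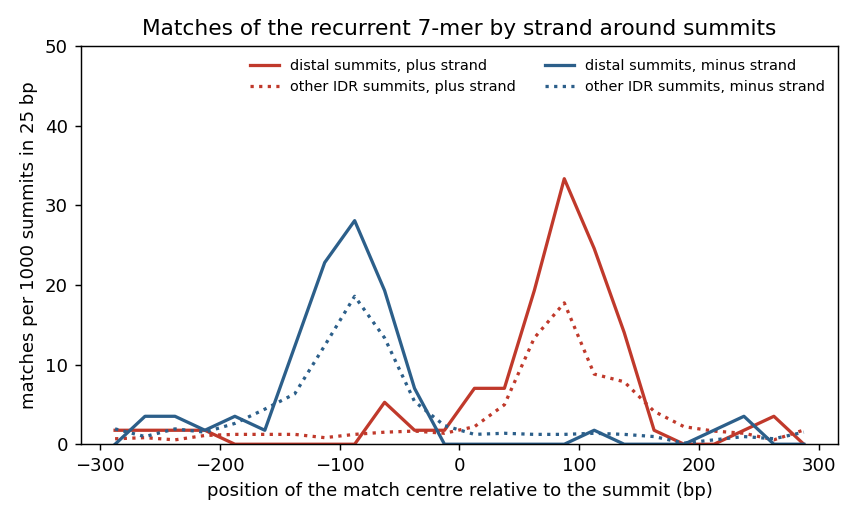
Matches of CAGTGTA per 1000 summits in bins of 25 bp (vertical axis) by the position of the match centre relative to the summit in bp (horizontal axis), for plus-strand matches (red) and minus-strand matches (blue) at distal summits (solid) and all other IDR summits (dotted). Minus-strand matches peak on the left at 28.1 per 1000 distal summits and plus-strand matches on the right at 33.3, with the highest points in the bins 75 to 100 bp from the summit.

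A set of 7 distal summits had an outward copy on each side, with their centres 129 to 239 bp apart and a median of 155 bp. These 7 were in the gaps beside 18w (signal 829), klg (727), Or85b (625), vers (296), RabGGTa (210.0), GluRIB (178) and between oc and Rubicon (171). All 7 lay below the 15 strongest distal peaks. Among the other IDR summits, 48 had such a pair, with a median spacing of 167.5 bp. A run of T preceded many copies, as in some but not all of the printed stretches. TTTT occurred in the 11 bases before CAGTGTA at 47 of 75 copies in distal windows (62.7%), against 317 of 649 at other IDR summits (48.8%). In distal sequence more than 500 bp from any IDR summit, it preceded 274 of 1830 copies (14.97%). Counted from the sequence side, 76 of the 358 copies with TTTT in all distal sequence lay within 150 bp of an IDR summit (21.2%), against 40 of 1618 copies without it (2.47%). Taking CAGTGTA with or without TTTT, the median signal was 285 in distal peaks whose window held CAGTGTA and 285 in those without CAGTGTA. The share of windows with CAGTGTA in 4 groups of 142 or 143 peaks by signal, strongest first, was 13.99%, 9.15%, 5.59% and 17.6%.

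Distal windows were A- and T-rich relative to their surroundings. Their GC content was 33.2% ± 6.49 (SD over 570 windows), against 40.3% ± 5.64 in the flanks 1000 bp away and 40.9% ± 8.61 over the tiled distal sequence. It was close to that of near intergenic (33.0%), gene body (33.8%) and promoter summits (34.8%). Motif shares move with base composition, whose part in them was not tested. The ACAATGT core found in DM-domain binding sites occurred in 24 distal windows (4.21%), against 24 and 11 flank windows and 3.43% of the tiled windows, and the tiled share lies inside its Wilson interval of 2.85 to 6.19%. The homeodomain core TAATTA was present in 15.4% of distal windows, against 17.4% and 14.7% of the flanks and 19.3% of the other summits. AGATAA, bound by GATA factors, was in 15.8% (Wilson interval 13.0 to 19.0%), against 12.8% and 11.8% of the flanks, 11.4% of the tiled windows and 15.5% of the other summits. Its flank and tiled shares lie below that interval, while for TAATTA the flank shares lie inside its interval of 12.7 to 18.6%.

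Some motifs were scarcer at distal summits than in the flanks. The E-box CAGCTG, a site of bHLH factors, was in 2.28% of distal windows, against 6.14% and 6.67% of the flanks and 6.03% of the other summits. The E-box CACGTG was in 0.702%, against 2.11% and 1.58% of the flanks, the second of which lies inside its Wilson interval of 0.273 to 1.79%. GAGAGAG, bound by GAGA factor, was in 0.702%, against 1.93% and 2.81% of the flanks and 5.21% of promoter summits. These 3 motifs are richer in G and C than TAATTA. Others did not stand apart from the flanks. TATCGATA, the DNA replication-related element of many housekeeping promoters, was in 2 distal windows (0.351%), against 0 and 2 flank windows and 3.46% of promoter windows. The forkhead core TGTTTAC was in 2.98%, against 2.81% and 3.86% of the flanks and 6.37% of the other summits. The Zelda site CAGGTAG was in 2 windows (0.351%), against 1.05% and 0.526% of the flanks and 0.886% of tiled windows, all inside its Wilson interval of 0.0963 to 1.27%. The TATA box TATAAAAG differed from these, with 3.33% (Wilson interval 2.14 to 5.15%) against 1.58% and 2.11% of the flanks. Both flank shares and the tiled share of 1.86% lie below that interval. The share at the other summits, 2.68%, lies inside it.

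Distal summits were fewer than the length of distal sequence alone would give. They made up 7.27% of IDR summits (Wilson interval 6.72 to 7.87%), while 15.4% of the chromosome arms, or 20.6 Mb, met the same rule. This came to 27.6 distal summits per Mb of distal sequence, against 58.5 IDR summits per Mb of all arm sequence. Arm 2L was densest, with 122 summits at 38.1 per Mb, followed by 3R (122 at 31.6), 3L (179 at 31.6), X (76 at 24.9), 2R (70 at 14.8) and the small chromosome 4 (1 at 7.69). Transposable elements made up 20.6% of the distal sequence in gaps on 2R, 14.7% on 2L, 13.6% on 3L, 12.6% on X and 7.95% on 3R. On chromosome 4 they made up 43.2%. The arms did not follow the order of their density in this content, and its part in the density was not tested. Outside transposable elements the density per Mb of distal gap sequence was 20.1 on 2R, 47.6 on 2L, 37.3 on 3L, 29.6 on X and 40.3 on 3R. The 1 summit of chromosome 4 gave 32.8. One distal summit lay in an annotated transposable element (0.175%), although these elements cover 14.3% of distal sequence. The share was also low in the other classes, with 0.289% of near intergenic, 0.203% of gene body and 0.307% of promoter summits. The treatment of repeat reads is not stated in the labels or headers, and mappability and occupancy cannot be told apart there.

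Density fell with distance from the TSS beyond 10 kb. The summits lay 5006 to 43220 bp from a TSS, with a median of 8889 bp and quartiles of 6657.5 and 12822.5 bp. Distal sequence itself had a median distance of 14748 bp and reached 567075 bp. There were 46.0 summits per Mb at 5 to 7.5 kb, 46.5 at 7.5 to 10 kb, 41.7 at 10 to 15 kb, 29.5 at 15 to 20 kb, 18.7 at 20 to 30 kb and 2.71 beyond 30 kb. The last bin holds 6.65 Mb but 18 summits, and 43.8% of its sequence is soft-masked as repeat, against 23.0% in the first bin. With transposable elements left out, the first and last bins still gave 52.1 and 3.21 per Mb, and the fall to 20 to 30 kb stands without the last bin. Median signal ran between 260 and 304 over the bins with no order by distance.

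**Figure D2:**
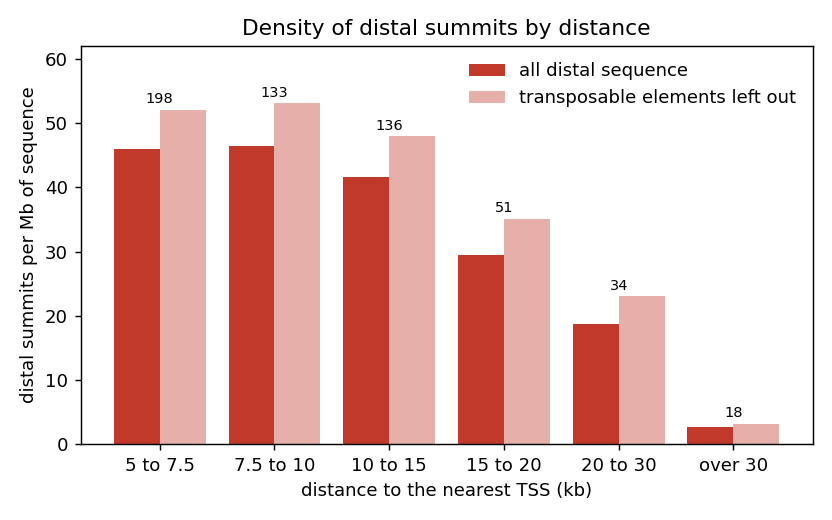
Distal summits per Mb of sequence (vertical axis) by distance to the nearest TSS in kb (horizontal axis), over all distal sequence (dark) and with annotated transposable elements left out (light). The numbers above the bars count the summits, and the density falls to 2.71 per Mb beyond 30 kb, against 46.0 per Mb at 5 to 7.5 kb.

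The 5000 bp threshold cut through a continuous range. The 3 summits just inside it lay at 5006, 5009 and 5014 bp with signal values of 254, 615 and 250.2. The 3 just outside lay at 4990, 4987 and 4968 bp with 175, 373 and 311. A distance to a TSS is not a distance to a gene: 22 distal summits lay within 1 kb of a gene body, and 443 (77.7%) were more than 5 kb from both flanking bodies. All 22 lay beside a 3′ end, as the rule on TSS distance requires, and the same rule favours 3′ ends among the nearest body ends (337 summits, 59.1%). The median distance to a body was 7601 bp. The nearest TSS was that of a protein-coding gene for 384 summits (67.4%) and of an ncRNA gene for 186 (32.6%).

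Distal peaks had a lower median signal than each of the other classes. The signal value, the peak caller's own score per peak, whose scale is not given in the sources used here, had a median of 285 at distal summits (95% order-statistic interval 272 to 297). The median was 317 (299.9 to 333) at near intergenic summits, 327 (319.6 to 337) in gene bodies and 420.2 (398 to 446) at promoters. The distal interval overlapped none of the other 3, but its upper end of 297 lay just below the near intergenic lower end of 299.9. These intervals cover counting error over peaks only. Peaks of the same experiment are not replicates, so the gap between intervals is no test between classes. Distal values had quartiles of 219 and 442 and ran between 170.4 and 6089.9. Among the 784 strongest IDR peaks 24 were distal (3.06%), and among the next 784 there were 29 (3.70%). The highest share in 10 such steps of signal was 82 of 784 (10.5%), in the step numbered 8. A total of 2 distal peaks were among the 100 strongest. In the wider list of 30000 peaks called on the pooled reads, 3152 summits were distal, and 570 of them passed the IDR threshold (18.1%), against 26.1% of all pooled peaks. The share that passed was 22.4% at near intergenic summits, 24.4% in gene bodies and 38.0% at promoters.

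**Figure D3:**
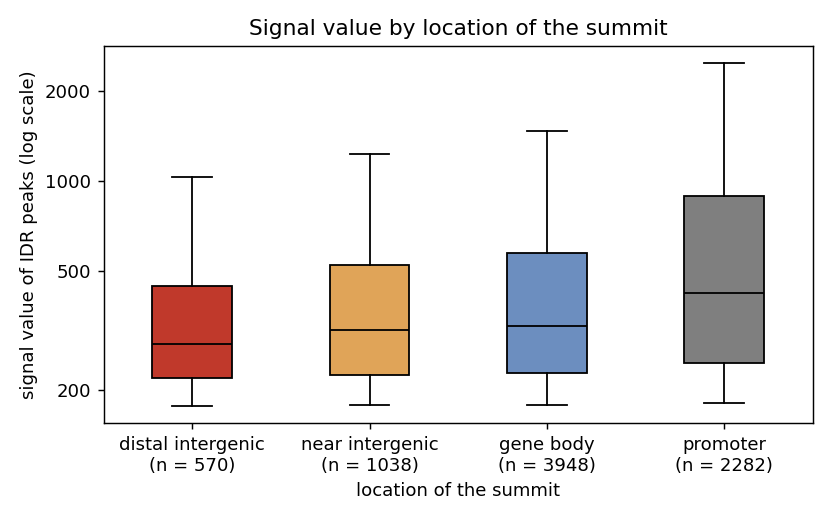
Signal value of IDR peaks on a log scale (vertical axis) by the location of the summit (horizontal axis). Boxes run over the quartiles with the median as a line, whiskers over the middle 90% of peaks, and distal peaks have a median of 285, against 317, 327 and 420.2 in the other 3 classes.

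Nearly all distal summits were found in each replicate. A peak of replicate 3 covered 569, a peak of replicate 4 covered 568, and peaks of both covered 567 (99.5%), against 98.1% of all IDR summits. Membership of the IDR list already requires agreement between replicates, so this is a description. The median value at distal summits was 204 in replicate 3 and 80.8 in replicate 4, with a median ratio of 2.57 between them (5th to 95th percentile 1.75 to 4.22). Over all IDR summits these medians were 245 and 99.0, and each list has its own scale. Across the 567 distal summits the log2 values of the 2 replicates correlated with r = 0.878 (Pearson) and rho = 0.815 (Spearman), against 0.916 and 0.882 over all IDR summits. These points share their libraries, and the IDR threshold removed discordant ones. The replicate summit lay a median of 5 bp from the IDR summit in replicate 3 and 19 bp in replicate 4. Within the 7838 strongest peaks of each list stood 527 of the 567 in replicate 3, 481 in replicate 4 and 448 in both. Where IDR summits stand close together, 1 replicate peak can cover several, which touched 4 distal summits in replicate 3 and 10 in replicate 4.

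**Figure D4:**
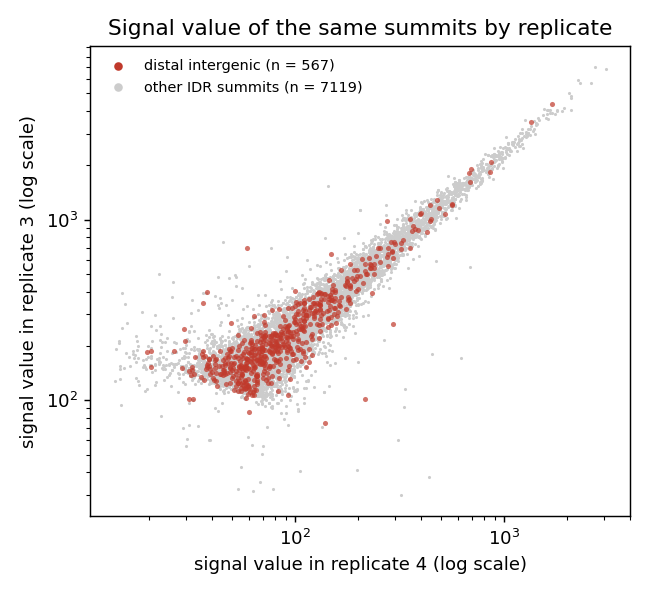
Signal value of the covering peak in replicate 3 (vertical axis, log scale) against that in replicate 4 (horizontal axis, log scale), for 567 distal summits (red) and the other IDR summits (grey) that a peak of each replicate covered. Distal summits follow the same band as the others, and most lie in its lower part, with medians of 204 in replicate 3 and 80.8 in replicate 4.

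A covering peak in 1 replicate was missing for 3 distal summits. The summit at position 15769131 of 3L, in the gap between lncRNA:CR46197 and CG6244, had an IDR signal of 650 and 445 in replicate 3, with no covering peak in replicate 4. The one between Glut3 and lncRNA:CR45750 on 3R had 632 and 476 in replicate 3, again with none in replicate 4. The one between nompC and lncRNA:CR42850 on 2L had 234 and 87.8 in replicate 4, with none in replicate 3. A summit of each replicate lay within 200 bp of 569 of the 570, and within 50 bp of 459.

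The strongest distal peak lay on 2R between Su(z)2 and CG13323 (chr2R:13035045-13035590), 11885 bp from a TSS. It had a signal of 6089.9 and ranked 10 among all 7838 IDR peaks, with 4387 in replicate 3 and 1699 in replicate 4. Su(z)2 encodes a Polycomb group protein, and its paralog Psc, which lies beside it on the same arm, flanked the distal peak that ranked 5 among the 570 (chr2R:12959051-12959685). That peak, in the gap between CG13321 and Psc, had 2611, with 1917 and 693 in replicates 3 and 4. Both peaks were in convergent gaps, beyond the 3′ ends of the paralogs.

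Next in rank came a peak between 2 non-coding genes on 2L, lncRNA:CR44603 and lncRNA:CR45695 (chr2L:1638507-1639055), with a signal of 4819 and with 3475 and 1350.4 in replicates 3 and 4. The nearest protein-coding genes to either side are RFeSP, which encodes the Rieske iron-sulfur protein of the respiratory chain, and chinmo, a BTB zinc-finger factor of neuronal temporal identity. The gap held 4 linked summits over 5959 bp, and another of them, at 2483, ranked 6 among distal peaks.

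The gap between NijA, which encodes a Ninjurin membrane protein, and CG43245 supplied 4 of the 15 strongest distal peaks, with values of 2936, 2689, 1754 and 1469. In replicate 3 they had 2077, 1832, 1278 and 1071, and in replicate 4 866, 855, 478 and 396, so each kept its place in the order in replicate 3 and in replicate 4. They lay 19160, 31953, 33039 and 26166 bp from a TSS, farther than the other 11 of the 15. The window of the first was 18.4% GC and that of the peak at 1754 was 16.9% GC.

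The other strong peaks stood beside genes of several kinds. The peak between lncRNA:CR44363 and CG7560 had 2301, with 1625 and 688 in replicates 3 and 4. That in the gap beside scyl, an inhibitor of TOR signalling, had 1766, with 1225 and 564. The peak 6641 bp upstream of Doc2, a T-box factor of the amnioserosa and heart, had 1758, with 1200 and 564, and is the one printed above with CACTGAG and CTCAGTGTA in its window. Close behind were peaks in the gap of tal (1643), a gene that encodes small peptides, between CG43401 and CG43402 (1637), and between betaTub60D, a tubulin gene, and lncRNA:CR44810 (1598). The peak between lncRNA:CR44730 and lncRNA:CR44731, where the nearest protein-coding gene on 1 side is the zinc-finger gene noc, had 1513. Across the 15, the ratio of replicate 3 to replicate 4 ran between 2.06 and 2.76.

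Distal summits stood less often near other IDR summits than those of the other classes, a difference that the rule itself favours. Distal summits lie more than 5 kb from every TSS and promoter summits within 500 bp of one. Promoter summits are thus nearly all out of reach at 5 kb. How much of the difference comes from the rule was not tested. Another IDR summit lay within 5 kb of 335 of them (58.8%, Wilson interval 54.7 to 62.7%), against 69.1% of near intergenic, 73.0% of gene body and 70.5% of promoter summits. The median distance to the next IDR summit was 3468 bp, against 2358 bp over all IDR summits. At the extremes, 106 distal summits (18.6%) had a neighbour within 1 kb, and 53 (9.30%) had none within 20 kb. Linked at 5 kb, the distal summits formed 387 groups, of which 284 were single summits, 63 were pairs and 40 held 3 or more, with 160 summits in all (28.1%). Median signal was 313 (286 to 367) in groups of 3 or more, against 276 (254 to 297) for single summits and 265 (249 to 296) for pairs, and the intervals overlap.

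A gap is the sequence between flanking gene bodies. Distal sequence was found in 1420 gaps, of which 299 held a distal summit (21.1%). One summit was found in 180 of the 299 and 2 or more in 119, which together held 390 of the 570 summits (68.4%). The 19 gaps with 5 or more held 129 (22.6%). Up to 50 kb, the share of gaps that held a summit rose with gap length. It was 14.7% at 10 to 15 kb and 30.3% at 15 to 20 kb. At 20 to 30 kb it was 40.4%, and at 30 to 50 kb 50.9%. A longer gap has more distal sequence in which a summit can lie. Per Mb of distal sequence these gaps held 44.4, 53.0, 49.6 and 39.8 summits in the same order, with no steady rise by length. Of 71 gaps beyond 50 kb, 13 held a summit (18.3%). Those 13 gaps held 57 summits in 0.783 Mb of distal sequence, while the other 58 hold 7.30 Mb with none.

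The fullest gap, on 3L between hng3 and CG13898 (chr3L:755490-803426, 47.9 kb), held 14 distal summits with signal values between 177 and 1448 and a median of 479. Their values ran between 102 and 1014 in replicate 3 and between 31.0 and 448 in replicate 4. Of the 14, 10 formed a single linked group over 19934 bp, the largest among distal summits, and none of the 14 windows held CAGTGTA. The gap between NijA and CG43245 (chr3L:10696878-10771924, 75.05 kb) held 11 summits, with values between 180 and 2936 and a median of 540.3. A run of 7 was linked over 10396 bp. Its genes point away from each other, and the summits lie 23163 to 63466 bp from the end of NijA.

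The gap beside vvl, a POU-domain factor of tracheal and nervous system development, and lncRNA:CR45115 (chr3L:6794942-6865448, 70.5 kb) also held 11 summits, with values between 199 and 1056 and a median of 344. They were spread over 63761 bp. The gap between Tollo, a Toll-family receptor, and Best4, a bestrophin channel gene, held 9 weak summits in 56.1 kb, between 170.4 and 551 with a median of 250.1. The densest of the 10 fullest gaps lay between lncRNA:CR44363 and CG7560, where 8 summits stood in 8829 bp with values between 173 and 2301. Its closest 2 summits stood 206 bp apart, at 1024 and 261.

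The other 5 of the 10 fullest gaps were shorter or flanked by non-coding genes. The divergent gap between lncRNA:CR45590 and tal-2A on 3R (26.5 kb) held 7 summits, with values between 224 and 1643 and a median of 415. That between lncRNA:CR43298 and lncRNA:CR45482 on X (46.0 kb) also held 7, between 219 and 506. The gap between Doc2 and lncRNA:CR46451 (17.3 kb) held 6 in 8585 bp, at 1758, 173, 268, 238, 459 and 790 along the arm, so that the strongest stood at the Doc2 end and the next at the far end. The gap between lncRNA:CR46197 and CG6244 (49.1 kb) held 6, between 205 and 650. The last of the 10, between lncRNA:CR45411 and lncRNA:CR43785 (22.5 kb), held 5 between 257 and 1287. It is 1 of 10 gaps tied at 5 summits and was taken by its summed signal. Of the 9 gaps with 6 or more, 7 are on 3L.

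**Figure D5:**
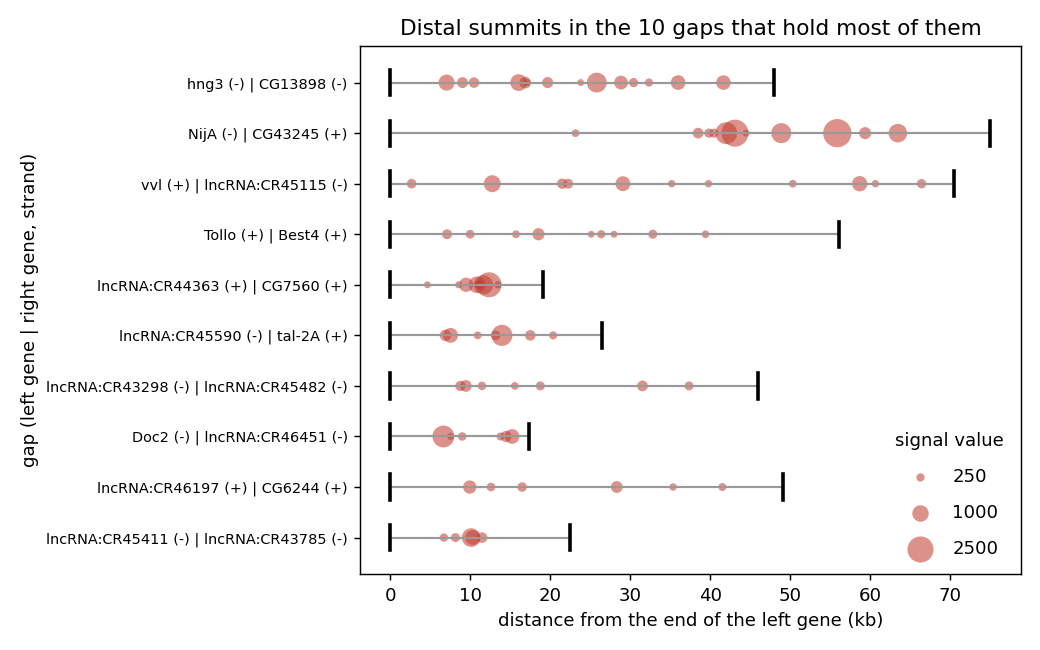
The 10 gaps with most distal summits, each drawn from the end of its left gene to the start of its right gene (black ticks), with distance in kb on the horizontal axis and the gene pair with its strands on the vertical axis. Circles are distal summits with area by signal value, and the 4 largest in the NijA gap range between 1469 and 2936.

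Occupancy by gene orientation moved with gap length. Divergent gaps held a distal summit in 59 of 233 cases (25.3%), tandem gaps in 152 of 667 (22.8%) and convergent gaps in 88 of 520 (16.9%). A divergent gap has a TSS at each end, so it must be longer to hold distal sequence at all. The median length of these gaps was 17585 bp for divergent, 13933 bp for tandem and 9455.5 bp for convergent ones. How much of the difference in shares comes from the rule was not tested. Outside transposable elements, divergent gaps had 48.0 summits per Mb, tandem gaps 32.5 and convergent gaps 31.8. Among gaps of 10 to 50 kb, a length range chosen after these values were seen, the shares were 24.8% of divergent, 29.5% of tandem and 30.7% of convergent gaps, with 58.4, 53.6 and 48.0 summits per Mb outside transposable elements. The order of the shares was thus turned, while that of the densities stayed. Both flanking genes were protein-coding for 268 summits, 1 of them was ncRNA for 252, and both were for 50.

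Genes of transcription factors and of signalling flanked distal summits in a larger share than genes overall. For this count ncRNA genes were ignored, so that a gap runs between protein-coding neighbours. Of 13945 protein-coding genes, 516 (3.70%) flanked a gap with a distal summit. Among 84 homeodomain and Pax genes 24 did (28.6%), among 104 other developmental transcription factor genes 25 (24.0%), among 49 signalling ligand and receptor genes 11 (22.4%), and among 108 adhesion and axon guidance genes 22 (20.4%). Of 88 genes of cytoplasmic ribosomal proteins 1 did (1.14%), RpL22-like. The difference was smaller among genes that flank any distal sequence. Of those, 43.6% of the homeodomain and Pax genes, 41.7% of the other transcription factor genes, 45.8% of the signalling genes and 31.9% of the adhesion genes flanked a summit, against 24.4% of all protein-coding genes. Neighbours share gaps, so these genes are not independent. The gene lists were chosen with earlier results of these data known, so these shares are a description and no test.

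Per length of sequence, gaps of protein-coding neighbours held 59.2 summits per Mb beside homeodomain and Pax genes, 57.7 beside the other transcription factor genes, 70.6 beside signalling genes and 31.9 beside adhesion and guidance genes, against 30.3 over all such gaps. The adhesion list thus lay close to the overall density. Gaps flanked by a gene of the 2 transcription factor lists, ncRNA neighbours counted, held 56.7 summits per Mb, with 44 of 127 gaps occupied (34.6%). The other gaps held 27.0 per Mb, with 255 of 1293 occupied (19.7%). Transposable elements make up 3.67% of the distal sequence beside the listed genes, against 15.4% elsewhere. Outside them the densities were 58.8 per Mb beside the listed genes and 31.9 elsewhere. In gaps of 10 to 50 kb, also outside these elements, they were 71.8 per Mb beside the listed genes and 50.1 elsewhere. Of the 299 occupied gaps, 44 had such a neighbour (14.7%, against 8.94% of all 1420 gaps). Median signal was 296 (266 to 362) beside listed genes and 283 (268 to 297) elsewhere, with overlapping intervals. Since the lists were chosen with earlier results of these data known, the densities too are a description.

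Among the homeodomain and Pax genes, the highest single value stood between the Pax genes eyg and toe, with 1 summit at 1233. By number, vvl led with 14 summits in its 2 gaps (highest 1056), followed by hth, a cofactor of Hox proteins, with 9 (724), and ems, a head gap gene, with 7 (1045). The gaps of oc, also a head gap gene, held 5 (718), and those of Dr 4 (639), while the Hox gene abd-A (632) and C15 (629) had 1 each. Many of these genes act in patterning the head, the nervous system or the segments.

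Among the other transcription factor genes, Doc1 and Doc2 shared 6 summits (highest 1758). The gaps of the T-box genes mid and H15 held 6 (683) and 4 (621), and those of SoxN, a Sox factor of the early nervous system, 5 (846). The zinc-finger genes tsh (508) and drm (492) had 1 each. The gene of the tagged factor, dmrt99B, flanked 3 distal summits, the highest at 478.

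Among the signalling genes, the gap between the Wnt ligand genes wg and Wnt4 held 5 summits (highest 1100.3), that of the FGF ligand genes pyr and ths 3 (963), and that of ptc, the Hedgehog receptor, 1 (1269). The gaps of sty, an inhibitor of receptor tyrosine kinase signalling, held 2 (396), and the Notch ligand gene Ser (302) and the JAK/STAT ligand gene upd2 (231) followed below. Among the adhesion and guidance genes, the Toll-family genes 18w, Toll-6 and Tollo had 6 (highest 1263), 5 (717) and 10 (551). Others were tnc with 2 (921), the immunoglobulin-domain gene klg with 5 (727), the leucine-rich repeat gene caps with 3 (537), DIP-delta with 2 (446) and the Netrin gene NetA with 1 (430).

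Gaps between related genes were among those occupied. Of 24 gaps between protein-coding genes with a listed transcription factor or signalling gene on both sides, 13 held distal summits (54.2%), with 35 summits at 78.5 per Mb. Over all gaps between protein-coding genes, 282 of 1266 held distal summits (22.3%), at 30.3 per Mb. The count of 24 gaps was chosen after its values were seen, and gap length was not matched. The unoccupied gaps among the 24 are not described here, so family relation cannot be set against occupancy. The 13 gaps lie between Doc2 and Doc1, toe and eyg, Wnt4 and wg, pyr and ths, H15 and mid, unc-4 and OdsH, E5 and ems, sob and odd, disco-r and disco, caup and mirr, B-H2 and B-H1, Sox21b and D, and salr and salm. Each is a pair of genes of the same family, standing next to each other on its arm. Their highest values ran between 211 for salr and salm and 1758 for Doc2 and Doc1, so the strength of the peaks differed widely among them.

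The 5 summits farthest from any TSS had signal values between 178 and 427. The farthest lay 43220 bp out, between CG10651 and lncRNA:CR40341 on 2L, with a signal of 427 and the next IDR summit 62545 bp away. The next lay between AOX4, an aldehyde oxidase gene, and CG43335 on 3R, 39330 bp out, at 219. One at 38988 bp, with 178, was 2444 bp from the body of GluRIB, a glutamate receptor gene, and had an outward CAGTGTA on each side. One at 37697 bp, with 324, was 850 bp from the 3′ end of bab2 in the gap that separates it from its paralog bab1, both genes of leg and abdomen patterning. The fifth, in the NijA gap at 36562 bp, had 420.4.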

How the data were processed

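The deposited files were 4 peak lists on dm6: 1 per replicate, 1 of the pooled libraries (30000 peaks) and the IDR list (7838). The values used are the authors' deposited signal scores (column 7), whose scale, like the aligner, peak caller and IDR threshold, is not given in the sources used here; scores were compared within a list. Read depth is unknown. Summits were placed on Ensembl release 115 genes, ignoring transposable elements, and release 6 sequence. Windows were 201 bp, and 14 motifs were searched by exact match. Named genes flank the 15 strongest summits, the 10 fullest gaps, the 5 farthest summits, and up to 8 members per gene list with highest signal. Members and lists were chosen with earlier results of these data known, including CAGTGTA. With 1 group no test between conditions was possible; Wilson and order-statistic intervals (95%) cover counting error over peaks only. Nothing in the labels says whether the replicates came from separate embryo collections. Alternatives changed the TSS distance and type, window, linking distance, neighbours, signal and replicate. The tools were Python 3.11.15 with scipy 1.17.1, matplotlib 3.10.9, pandas 2.3.3 and numpy 2.4.6; counting steps were tested on simulated data.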

Additional observations from a re-analysis of the deposited data

How the results depend on the processing

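Of 40 alternatives to 8 results, 25 stayed within 1.5 times a count or within the 95% interval of a value, and 15 did not. Distal summits numbered 941 (12.0% of IDR summits) beyond 2500 bp and 239 (3.05%) beyond 10000 bp. Their share was 10.3% with protein-coding TSSs alone and 5.49% among the 3919 strongest IDR peaks. Another IDR summit lay within 2 kb of 33.7% and within 10 kb of 77.7%, and within 5 kb of 37.2% among these strongest peaks. CAGTGTA stood in 2.11% of windows of 50 bp to either side, in 19.8% of windows of 200 bp, and in 8.79% beyond 10000 bp from a TSS. GC content was 30.3% within 50 bp and 38.6% within 200 bp. A listed transcription factor gene had the nearest TSS in 8.70% of gaps. Some directions follow from the rule itself. A longer TSS distance can only lower the count of distal summits, and leaving out ncRNA TSSs can only raise it. A longer linking distance or wider window can only raise the share with a neighbour or with CAGTGTA. The cause of the other shifts was not tested. Without 1 replicate, the 7838 strongest peaks of the other replicate gave 543 to 553 distal summits, shares of 6.93 to 7.06%, neighbours within 5 kb for 58.0 to 59.7%, CAGTGTA in 11.2 to 11.6%, GC of 33.4 to 33.5% and listed neighbours in 14.8 to 15.3%. Signal medians have no such value, since scales differ between lists. Gaps of 10 to 50 kb, added after seeing the data, gave 15.4%. No paired analysis was possible because there was 1 group. Read depth is unknown, so faint distal sites cannot be told from absent ones.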
